A study of Mus musculus with 18 samples.

Results

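Expression of 10 genes of the bone morphogenetic protein (Bmp) pathway was followed in hindlimb buds of Pitx1 null mouse embryos and of wild-type embryos. Pitx1 encodes a homeodomain protein found in hindlimb and not forelimb buds. The genes were the ligands Bmp2, Bmp4, Bmp5 and Bmp7, the secreted antagonists Grem1 and Nog, and the target genes Msx1, Msx2, Id1 and Id3. They were chosen by name, with earlier results of these data known. They are 10 of the 14686 genes listed in at least 1 of 3 deposited tables of RNA-seq expression. Of the 10, 9 are listed in every table, and Nog is listed only in the e11.5 table. Each table lists genes above 0.5 counts per 1000000 reads (CPM) in at least 3 of its libraries, so Nog was not analysed here at the other stages.

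The groups had 3 libraries each. The first 4 of them were Pitx1 null and Pitx1 wild-type hindlimb buds of strain BALB/c, each at e11.0 (embryonic day) and again at e11.5. The others were wild-type CD1 hindlimb buds of e11.0 and CD1 forelimb buds of e10.5. In every group the titles give run3982 for replicates 1 and 2. For replicate 3 they give run3412 in the Pitx1 groups of e11.0, run126 (unstranded libraries) in those of e11.5, and no run in CD1. The e11.5 libraries were made from enriched mRNA and the others by ribosomal depletion, so stage and library preparation cannot be told apart. The sources used here do not give the null allele or say whether a library holds 1 embryo or a pool. The p-values therefore speak only of the spread among libraries, part of which may be technical.

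Pitx1 RNA, measured first as a check of the labels, averaged 21.2 ± 1.81 CPM in null and 124 ± 10.9 CPM in wild-type hindlimbs at e11.0 (SD, n = 3 each). At e11.5 it averaged 79.8 ± 8.31 CPM in null and 338 ± 23.7 CPM in wild-type hindlimbs, so reads on the gene were reduced but not absent in the null libraries. All 6 markers of limb bud mesenchyme were listed in every table, and Tbx5, the forelimb T-box factor, was listed in neither Pitx1 table. Libraries held 17.4 to 53.6 M reads on listed genes (M, 1000000), and 1 read was worth at most 0.0575 CPM. In these bulk samples, fewer cells of a type and less RNA per cell cannot be told apart.

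Bmps are secreted ligands that bind pairs of type I and type II serine/threonine kinase receptors and signal through Smad1, Smad5 and Smad9. In the limb bud they are made in the mesenchyme and in the apical ectodermal ridge, the distal rim of ectoderm whose Fgfs keep the bud growing, and they restrain that ridge. Gremlin 1, made in the mesenchyme, binds Bmp2, Bmp4 and Bmp7 and shields the ridge from them, and Noggin is a second antagonist, best known from the later cartilage. The homeodomain factors Msx1 and Msx2 and the helix-loop-helix inhibitors Id1 and Id3 are genes that Bmp signalling turns on in many tissues.

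The upstream sequences of 3 members that rose together in e11.5 null hindlimbs are given because a factor acting on transcription could bind there. They are from RefSeq, build GRCm38.p6, 250 bases ending at the base before the annotated start site, and 6 of the 10 members had an entry. All 3 lie on the minus strand and are written 5′ to 3′ in the direction of transcription. The Grem1 window is chr2:113758649-113758898, the Msx1 window chr5:37824586-37824835 and the Bmp4 window chr14:46390670-46390919. The RefSeq and GENCODE start sites differ for Msx2 and Id3, whose windows lie inside the GENCODE gene and are not printed. The Bmp5 window, with 1 base inside the GENCODE gene, is not printed either. Capitals mark GGCGCC, a GC-rich element known to be bound by Bmp-activated Smads.
Grem1 promoter: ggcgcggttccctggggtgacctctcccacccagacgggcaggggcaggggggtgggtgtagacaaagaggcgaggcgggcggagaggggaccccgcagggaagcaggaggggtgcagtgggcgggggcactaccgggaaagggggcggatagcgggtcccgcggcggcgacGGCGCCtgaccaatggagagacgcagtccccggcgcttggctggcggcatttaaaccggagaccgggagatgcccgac
Msx1 promoter: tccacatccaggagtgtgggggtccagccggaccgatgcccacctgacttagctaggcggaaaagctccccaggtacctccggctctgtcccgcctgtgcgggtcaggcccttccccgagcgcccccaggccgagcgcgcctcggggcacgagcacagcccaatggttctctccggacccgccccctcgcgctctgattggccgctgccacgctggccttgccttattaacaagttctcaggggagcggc
Bmp4 promoter: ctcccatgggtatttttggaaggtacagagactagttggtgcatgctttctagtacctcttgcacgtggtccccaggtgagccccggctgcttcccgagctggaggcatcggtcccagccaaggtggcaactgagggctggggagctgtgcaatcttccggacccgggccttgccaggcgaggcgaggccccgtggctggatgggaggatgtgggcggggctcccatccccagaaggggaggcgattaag

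TAATCC, the core that Pitx and other bicoid-type homeodomain proteins bind, was searched for on both strands and was in none of the 6 windows. The 6 include the Msx2 and Id3 windows, which lie inside the GENCODE gene and so are not upstream of its start. GGCGCC, which reads the same on both strands and does not overlap TAATCC, was in the Grem1 window alone, with its first base at -78 from the start site. Of 32851 mouse windows of the same length, 9.6% held GGCGCC and 6.3% held TAATCC. The Grem1 window had a GC content of 72.0%, where the median of all windows was 52.4%. A match is a description of these letters, and its absence says nothing about sites elsewhere.

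**Figure D1:**
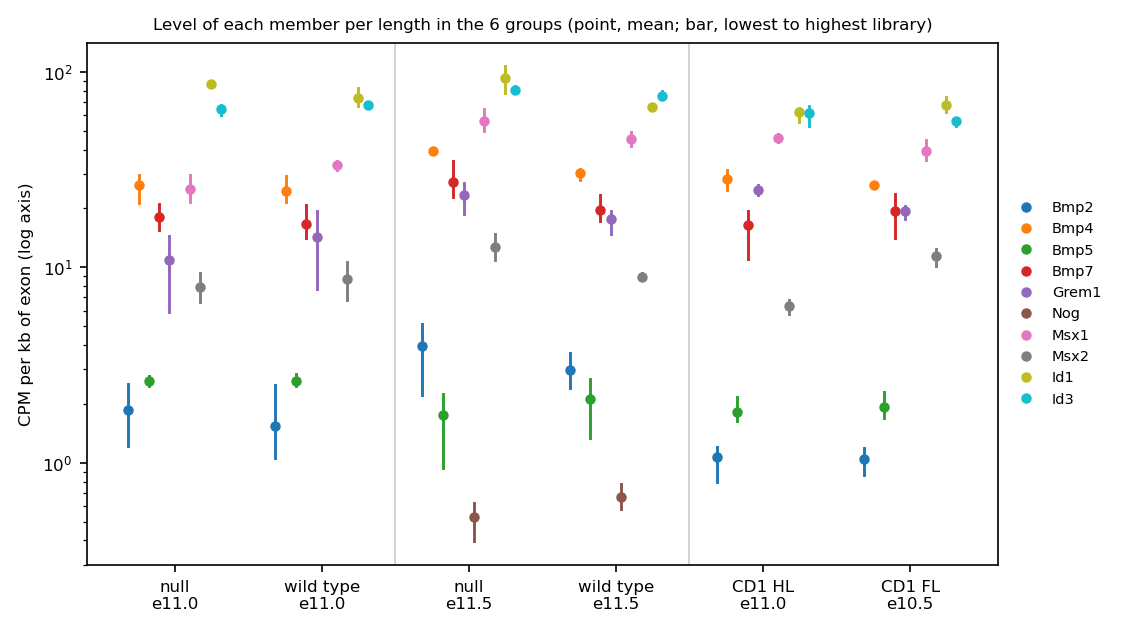
CPM per kb of annotated exon (log axis) of each member in the 6 groups; points are means and bars run from the lowest to the highest of 3 libraries. Id1 and Id3 lie highest in every group, and Bmp2, Bmp5 and, where listed, Nog lie lowest.

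Levels per length, as CPM per kb of annotated exon, fell in a similar order in all 6 groups. Id1 and Id3 led, at 93.0 ± 14.3 and 80.7 ± 3.38 CPM per kb in e11.5 null hindlimbs and at 66.2 ± 2.19 and 75.5 ± 3.29 CPM per kb in e11.5 wild-type hindlimbs. Below them in e11.5 null hindlimbs came Msx1 at 55.9 ± 7.69, Bmp4 at 39.1 ± 1.07, Bmp7 at 27.3 ± 6.63, Grem1 at 23.4 ± 4.33 and Msx2 at 12.6 ± 2.02 CPM per kb. In e11.5 wild-type hindlimbs the same genes were at 45.1 ± 3.85, 30.3 ± 2.08, 19.6 ± 3.44, 17.6 ± 2.48 and 8.88 ± 0.425 CPM per kb. The order of these genes was therefore shared, and only Bmp7 and Grem1 overlapped as neighbours among them in either genotype. The lowest levels were those of Bmp2, at 3.97 ± 1.53 in null and 2.96 ± 0.626 CPM per kb in wild type, of Bmp5, at 1.76 ± 0.712 and 2.12 ± 0.695, and of Nog, at 0.529 ± 0.118 and 0.666 ± 0.0995. Bmp2 and Bmp5 overlapped. In e11.0 null hindlimbs Bmp4 and Msx1 overlapped, at 26.4 ± 4.4 and 25.2 ± 4.0 CPM per kb, while in e11.0 wild-type hindlimbs every Msx1 library, at 33.2 ± 1.83, was above every Bmp4 library, at 24.5 ± 4.31. In CD1 hindlimbs and forelimbs Grem1 stood at 24.8 ± 1.5 and 19.5 ± 1.58 CPM per kb, within the range of Bmp7 only in forelimbs.

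At e11.0 the antagonist Grem1 and the target Msx1 were lower in Pitx1 null than in wild-type hindlimbs, while the ligands gave no call. Of the 9 listed members, 2 were lower and 0 higher at an adjusted p threshold of 0.05 in limma, against 13.1% of all 14027 genes called, 4.73% higher and 8.41% lower. At an unadjusted p under 0.05, 2 were lower and 1 higher, and edgeR on the recovered reads called 1 lower and 1 higher, with 12.4% of all genes called. The median log2 fold change, on the log2(CPM + 1) scale used throughout, was 0.00 over the members and -0.07 over all genes, so the count by itself does not set the members apart.

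Grem1 (ENSMUSG00000074934, GRCm38 chromosome 2, 113746164 to 113758646, minus strand) was at 59.6, 51.7 and 24.4 CPM in null libraries 1 to 3, against 79.9, 65.5 and 32.2 CPM in wild-type libraries 1 to 3. The groups overlapped, replicate 3 was lowest in both, and each null library was below the wild-type library of its number. With the run as a term, the log2 fold change was -0.38 ± 0.09 (SE, limma adjusted p = 0.0283), and within runs it was -0.38 in run3982 and -0.39 in run3412. The libraries of run3412 lay -1.15 log2 units from those of run3982, further than the genotypes lay from each other. In run3412 the summed level of 9 genes of the apical ridge and limb bud ectoderm was higher. The list holds Fgf8, Fgf4, Fgf9, Fgf17, Sp6 and Sp8, known from the ridge, with Wnt7a of dorsal, En1 of ventral and Trp63 of all surface ectoderm. It summed to 491 CPM in null and 414 CPM in wild type, where run3982 had 228 to 256 CPM in null and 183 to 221 CPM in wild type. Of these genes Wnt7a (0.63 ± 0.09) and Sp8 (0.28 ± 0.08) were higher in e11.0 null hindlimbs, Wnt7a whichever library was left out and Sp8 in 1 of 6 such fits. Their part in the Grem1 level was not tested.

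Msx1 (ENSMUSG00000048450, chromosome 5, 37820485 to 37824583, minus strand) was at 91.3, 66.7 and 76.2 CPM in e11.0 null libraries, against 102, 97.5 and 109 CPM in wild-type libraries. Every null library was below every wild-type library, as 18.5% of all genes showed no overlap in one direction or the other. Its log2 fold change was -0.40 ± 0.10 (SE, limma adjusted p = 0.0340), with -0.35 in run3982 and -0.51 in run3412, and edgeR on the recovered reads gave an adjusted p of 0.0514. Both calls were lost when 1 library was left out. In the fits lacking null replicate 2, null replicate 3, or wild-type replicates 1 or 3 in turn, the limma adjusted p was 0.139, 0.134, 0.148 and 0.133 for Grem1 and 0.157, 0.174, 0.155 and 0.172 for Msx1. Scaled by median ratios, neither was called (limma adjusted p = 0.0565 for Grem1 and 0.0727 for Msx1), and that scaling turned the split of all called genes to 1326 higher and 403 lower, against 664 higher and 1179 lower as deposited. Trimmed-mean scaling gave 1067 higher and 516 lower, and lost Msx1 (limma adjusted p = 0.0517). Grem1 and Msx1 were both called with the replicate block (limma adjusted p = 0.0047 and 0.0074). DESeq2 on the recovered reads also called both (adjusted p = 0.0367 and 0.0462), while edgeR called Grem1 alone (adjusted p = 0.0402).

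**Figure D2:**
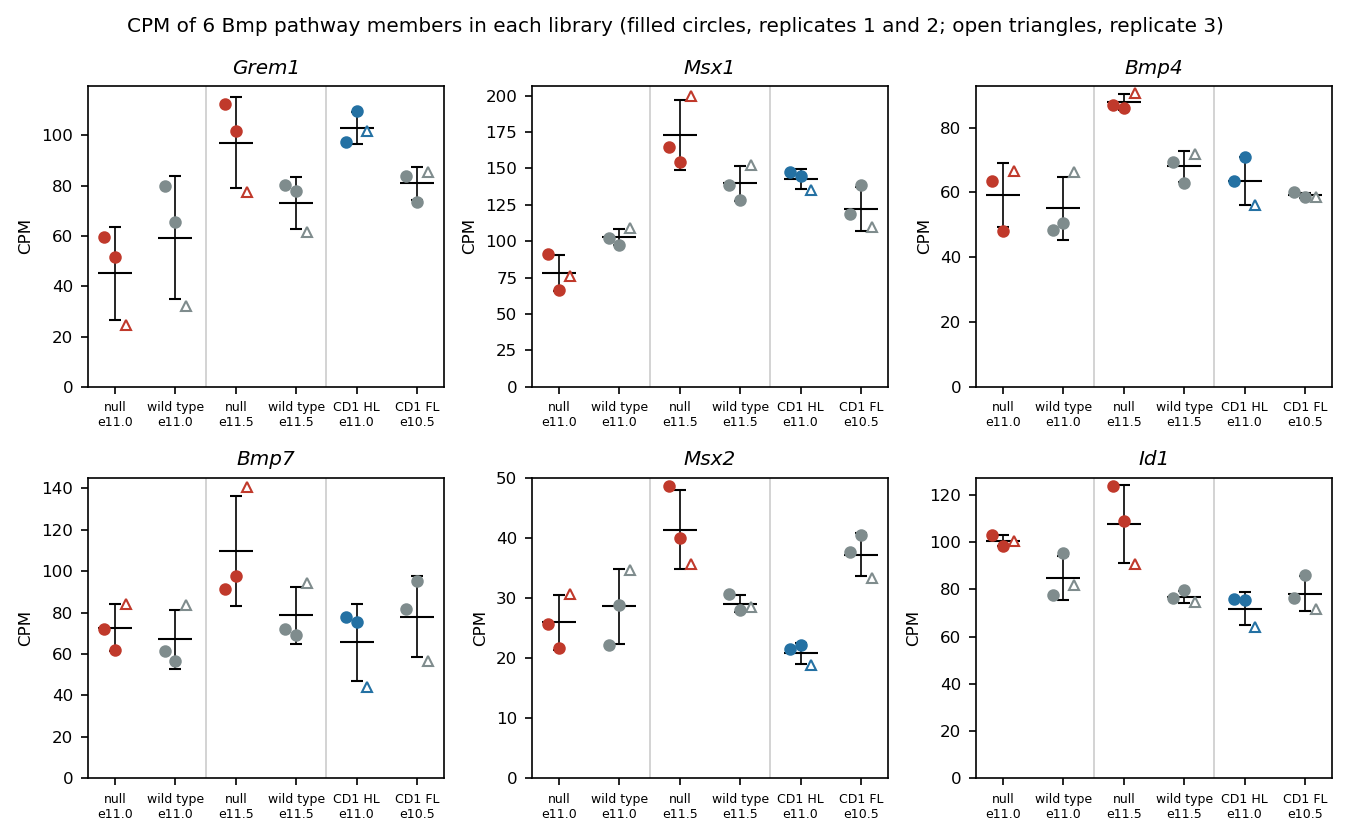
CPM (linear axes from 0) of 6 members in every library of the 6 groups; filled circles are replicates 1 and 2, open triangles replicate 3, and bars are mean ± SD (n = 3). HL is hindlimb and FL forelimb. Grem1 and Msx1 lie lower in null than in wild type at e11.0 and higher at e11.5, with overlap for Grem1 at both stages.

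The target Id1 (ENSMUSG00000042745, chromosome 2, 152736251 to 152737410, plus strand) was at 103, 98.3 and 100.5 CPM in e11.0 null libraries, against 77.6, 95.3 and 81.8 CPM in wild-type libraries. The groups did not overlap, with null the higher, yet the log2 fold change of 0.25 ± 0.08 (SE) did not pass (limma adjusted p = 0.0683). It passed with the replicate block (limma adjusted p = 0.0346), without wild-type replicate 2 (limma adjusted p = 0.0015) and with trimmed-mean, median-ratio and upper-quartile scaling (limma adjusted p = 0.0369, 0.0289 and 0.0417). It also passed with edgeR (adjusted p = 0.0359) and DESeq2 (adjusted p = 0.0075) on the recovered reads, and the authors' deposited table gives an adjusted p of 0.0040. Of the 6 fits without a library, only the 1 lacking wild-type replicate 2 called Id1. In the others its limma adjusted p reached 0.259.

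None of the ligands was called at e11.0, which does not show that their levels were alike in the genotypes. Bmp4 was at 63.4, 48.1 and 66.5 CPM in null libraries, against 48.3, 50.6 and 66.1 CPM in wild-type libraries. Bmp7 was at 71.9, 62.1 and 84.4 CPM in null libraries, against 61.3, 56.4 and 83.5 CPM in wild-type libraries. Both genes overlapped between the genotypes, and the 95% confidence interval of the log2 fold change ran from -0.11 to 0.32 for Bmp4 and from -0.05 to 0.30 for Bmp7. For Bmp2, whose log2 fold change was 0.27, it ran from -0.05 to 0.59. For Bmp5 the interval ran from -0.22 to 0.23, for Msx2 from -0.36 to 0.11 and for Id3 from -0.23 to 0.08. These 4 genes overlapped as well, at 4.34 to 8.99 CPM for Bmp2 in null and 3.74 to 8.86 CPM in wild type, and at 9.96 to 11.2 CPM for Bmp5 in null and 9.97 to 11.4 CPM in wild type.

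At e11.5 the ligands Bmp4 and Bmp7, the antagonist Grem1 and the targets Msx1, Msx2 and Id1 were higher in Pitx1 null hindlimbs. Of the 10 members, 6 were higher and 0 lower in limma, where 10.8% of 13478 genes were called, 2.83% higher and 7.96% lower. At an unadjusted p under 0.05, 7 were higher and 1 lower, and edgeR on the recovered reads gave the same counts as limma, 6 and 0, with 12.1% of all genes called. The median log2 fold change was 0.35 over the members and -0.02 over all genes. The members were chosen with earlier results of these data known, so their share is not that of a set picked blind. Every count with a run term, whichever library was left out and whichever scaling was used, was 6 higher. The split of all called genes, 382 higher and 1073 lower as deposited, was 650 and 925 with trimmed-mean scaling and 743 and 919 with median-ratio scaling.

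Among the ligands, Bmp4 (ENSMUSG00000021835, chromosome 14, 46383520 to 46390669, minus strand), the main mesenchymal Bmp, was at 87.0, 86.0 and 90.6 CPM in e11.5 null libraries, against 69.4, 62.8 and 71.8 CPM in wild-type libraries. Every null library was above every wild-type library. The log2 fold change was 0.37 ± 0.05 (SE, limma adjusted p = 0.0044), with 0.39 in run3982 and 0.33 in run126.

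Bmp7 (ENSMUSG00000008999, chromosome 2, 172868012 to 172940321, minus strand), a ligand of mesenchyme and ridge, was at 91.5, 97.7 and 140 CPM in e11.5 null libraries, against 72.3, 69.1 and 94.5 CPM in wild-type libraries. Replicate 3 was highest in both genotypes, so the groups overlapped, but the null library was the higher at each replicate number. The log2 fold change was 0.47 ± 0.05 (SE, limma adjusted p = 0.0017), with 0.41 in run3982 and 0.57 in run126.

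Bmp2 (ENSMUSG00000027358, chromosome 2, 133552159 to 133562885, plus strand), a ligand of the ridge and posterior mesenchyme, was at 18.2, 16.2 and 7.93 CPM in e11.5 null libraries, against 10.2, 12.9 and 8.53 CPM in wild-type libraries. In run3982 both null libraries were above both wild-type libraries, while in run126 the null library was slightly below its counterpart. The log2 fold change of 0.33 ± 0.14 (SE) was not called (limma adjusted p = 0.150), with 0.54 in run3982 and -0.09 in run126. Without null replicate 3 or without wild-type replicate 3 it was 0.54 and called, with a limma adjusted p of 0.0409 and 0.0413. Bmp5 (ENSMUSG00000032179, chromosome 9, 75775364 to 75900310, plus strand) was at 8.99, 8.47 and 3.79 CPM in null libraries, against 9.48, 10.7 and 5.38 CPM in wild-type libraries. These groups overlapped, and its log2 fold change of -0.26 (95% confidence interval -0.47 to -0.06) was not called (limma adjusted p = 0.0886).

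Of the antagonists, Grem1 was at 112, 102 and 77.3 CPM in e11.5 null libraries, against 80.4, 77.8 and 61.4 CPM in wild-type libraries. Replicate 3, from run126, was again lowest in both genotypes and made the groups overlap, while the null library was the higher at each number. The log2 fold change was 0.40 ± 0.05 (SE, limma adjusted p = 0.0036), with 0.43 in run3982 and 0.33 in run126. Nog (ENSMUSG00000048616, chromosome 11, 89300638 to 89302332, minus strand) was at 0.959, 1.06 and 0.671 CPM in null libraries, against 1.10, 1.31 and 0.979 CPM in wild-type libraries. Nog was near the floor of the table, the groups overlapped, and the log2 fold change of -0.17 (95% confidence interval -0.40 to 0.06) was not called.

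Of the targets, Msx1 was at 165, 154 and 199.9 CPM in e11.5 null libraries, against 139, 128 and 152 CPM in wild-type libraries, with no overlap. The absence of overlap held for 16.5% of all genes in one direction or the other, and for 4 of the 10 members, Bmp4, Msx1, Msx2 and Id1. The Msx1 log2 fold change was 0.30 ± 0.05 (SE, limma adjusted p = 0.0113), with 0.26 in run3982 and 0.39 in run126. It was no longer called without null replicate 3 (limma adjusted p = 0.0682) or without wild-type replicate 3 (limma adjusted p = 0.0676), while the other 5 calls held whichever library was left out, and in both of those fits Bmp2 took its place in the count.

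Msx2 (ENSMUSG00000021469, chromosome 13, 53466884 to 53473074, minus strand) was at 48.6, 40.0 and 35.6 CPM in e11.5 null libraries, against 30.7, 28.0 and 28.6 CPM in wild-type libraries. Id1 was at 124, 109 and 90.7 CPM in null libraries, against 76.3, 79.6 and 74.6 CPM in wild-type libraries. For both genes all null libraries were above all wild-type libraries, and the null libraries were the more spread. The log2 fold change was 0.48 ± 0.09 for Msx2 (SE, limma adjusted p = 0.0118), with 0.57 in run3982 and 0.31 in run126. It was 0.47 ± 0.07 for Id1 (SE, limma adjusted p = 0.0057), with 0.57 in run3982 and 0.28 in run126. Id3 (ENSMUSG00000007872, chromosome 4, 136143497 to 136145755, plus strand) was at 151, 141 and 141 CPM in null libraries, against 132, 132 and 142 CPM in wild-type libraries. The Id3 groups overlapped, and its log2 fold change of 0.09 (95% confidence interval -0.02 to 0.21) was not called (limma adjusted p = 0.263).

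Genes of other cells also differed between the e11.5 genotypes, some higher and more of them lower, where 2.83% of all genes were higher and 7.96% lower. Of the 9 genes of ridge and limb bud ectoderm, 2 were higher in e11.5 null hindlimbs, Wnt7a (0.59 ± 0.08) and Sp8 (0.33 ± 0.08), and 1 was lower, Fgf9 (-0.71 ± 0.14), while edgeR on the recovered reads called 6 higher and 1 lower. Wnt7a was called whichever library was left out, Fgf9 in 3 of 6 such fits and Sp8 in 1. The count of higher genes was 3 without null or wild-type replicate 1 and 1 without null or wild-type replicate 2, and Fgf9 was not called without null replicate 2 or either replicate 3. These genes summed to 137 to 186 CPM in null and 119 to 145 CPM in wild type, and none of the 9 was missing from the table. The 9 surface ectoderm markers summed to 289 to 364 CPM in null and 261 to 301 CPM in wild type, with 0 called in limma, 2 at an unadjusted p under 0.05 and 2 in edgeR.

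All 5 muscle precursor markers were lower in e11.5 null hindlimbs in limma, summing to 70.8 to 76.9 CPM in null and 100.7 to 115.1 CPM in wild type. Met (-0.58 ± 0.05) and Pax7 (-0.999 ± 0.149) were called whichever library was left out, Lbx1 in 3 of 6 such fits and Pax3 and Myf5 in 2. The count was 2 without null replicate 2 or wild-type replicate 1, and 3 without either replicate 3. Of 12 endothelial markers, 2 were lower, Cdh5 (-0.21 ± 0.05) and Tie1 (-0.28 ± 0.07), at a summed 401 to 479 CPM in null and 460 to 510 CPM in wild type. Of 7 listed macrophage markers, 2 were lower, Csf1r (-0.45 ± 0.12) and C1qa (-0.45 ± 0.12), at a summed 24.0 to 28.9 CPM in null and 29.0 to 35.0 CPM in wild type. Each of these endothelial and macrophage calls held in 1 of 6 fits without a library, the endothelial ones without null replicate 1 and the macrophage ones without wild-type replicate 1. Of the 6 markers of limb bud mesenchyme, 2 were higher and 0 lower, beside 2.83% and 7.96% of all genes. They were the homeobox gene Prrx2 (0.37 ± 0.04), called whichever library was left out, and the member Msx1. Prrx1 (-0.17 ± 0.08) and Tbx3 (-0.09 ± 0.05) lay below 0 and were not called. Of 9 erythroid markers 0 were called, at a summed 2608 to 3040 CPM in null and 2865 to 3429 CPM in wild type. The part of cell composition in the higher Bmp4, Bmp7, Grem1, Msx1, Msx2 and Id1 levels was not tested.

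**Figure D3:**
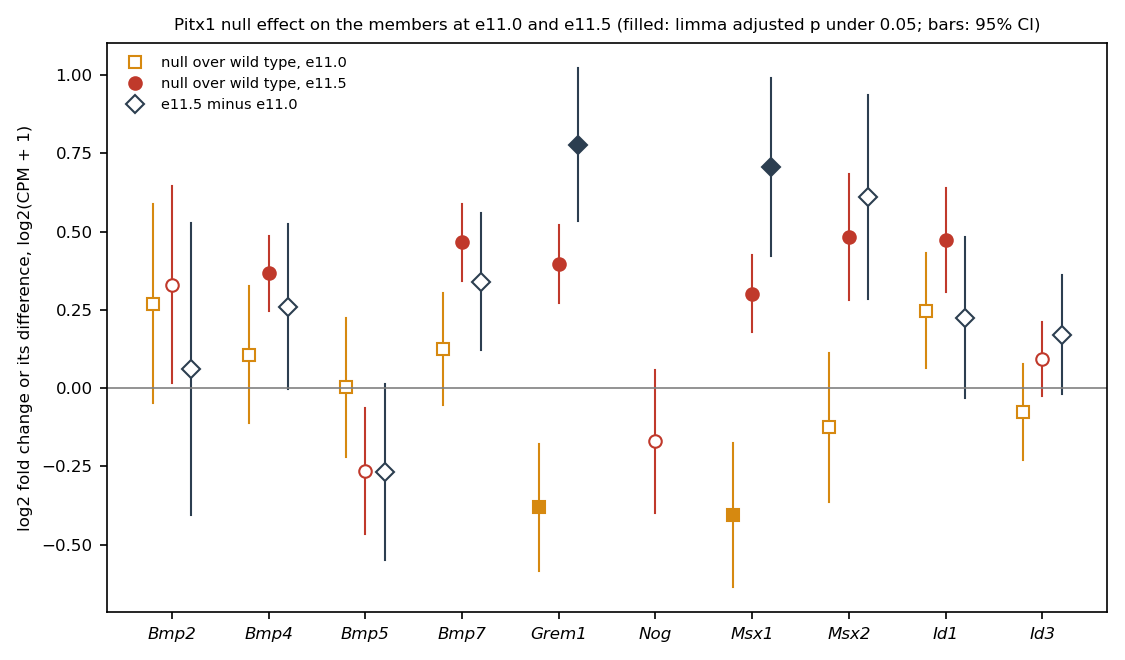
Log2 fold change, on the log2(CPM + 1) scale, of each member in Pitx1 null over wild-type hindlimbs at e11.0 (squares) and e11.5 (circles), and the e11.5 effect minus the e11.0 effect (diamonds); bars are 95% confidence intervals and filled symbols have a limma adjusted p under 0.05. Grem1 and Msx1 go from below 0 at e11.0 to above 0 at e11.5, and theirs are the filled diamonds.

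The null effect itself was compared between the stages over the 12 Pitx1 libraries, as the e11.5 log2 fold change minus the e11.0 log2 fold change. Grem1 and Msx1, lower in null hindlimbs at e11.0 and higher at e11.5, were the 2 of 9 members whose effect differed, both upward, where 0.363% of 12935 genes were called, 0.17% upward and 0.193% downward. Those calls split into 22 upward and 25 downward as deposited, and into 18 and 58 with median-ratio scaling, under which Grem1 and Msx1 kept their direction. For Grem1 the difference was 0.78 ± 0.11 (SE, limma adjusted p = 0.0120), made of -0.38 at e11.0 and 0.40 at e11.5. Leaving out null replicate 2 at e11.0 gave a difference of 0.72 and ended the call (limma adjusted p = 0.0542), and the other 11 such fits kept it. For Msx1 the difference was 0.71 ± 0.13 (SE, limma adjusted p = 0.0419), made of -0.40 at e11.0 and 0.30 at e11.5, with 0.62 and an adjusted p of 0.0537 in edgeR on the recovered reads, which called 0.526% of all genes. The Msx1 call held in 3 of 12 fits when a single library was missing, those without wild-type replicate 2 or null replicate 1 at e11.0 or wild-type replicate 1 at e11.5, and in the others the limma adjusted p ran from 0.0857 to 0.174. With replicates 1 and 2 alone, neither was called (limma adjusted p = 0.0769 for Grem1 and 0.322 for Msx1).

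The other members did not pass in this comparison, which does not show that their effects were alike. Msx2 differed by 0.61 (95% confidence interval 0.28 to 0.93, limma adjusted p = 0.103), and it was called by DESeq2 on the recovered reads (adjusted p = 0.0394) and without wild-type replicate 2 at e11.0 (limma adjusted p = 0.0262). Bmp7 differed by 0.34 (95% confidence interval 0.12 to 0.56, limma adjusted p = 0.137), and it was called without wild-type replicate 2 at e11.0 (limma adjusted p = 0.0162). The intervals of Bmp4 (-0.0037 to 0.52), Id1 (-0.03 to 0.48), Id3 (-0.02 to 0.36), Bmp2 (-0.41 to 0.53) and Bmp5 (-0.55 to 0.01) all held 0. Among the markers of limb bud mesenchyme, Prrx2 (0.60 ± 0.10) and Lmx1b (0.91 ± 0.15) were also called upward, 3 of 6 with Msx1, which stands on that list too. The Prrx2 call held in 6 of 12 fits without a library and the Lmx1b call in 3, and the count was 3 in 3 of those fits, without wild-type replicate 2 or null replicate 1 at e11.0 or wild-type replicate 1 at e11.5, and 0 or 1 in the others. Their summed level at e11.0 was 661 to 889 CPM in null and 874 to 1080 CPM in wild type, and at e11.5 it was 1407 to 1686 CPM in null and 1420 to 1620 CPM in wild type. At e11.0, 9 of 12 endothelial markers were lower in null hindlimbs, at a summed 144 to 239 CPM in null and 233 to 319 CPM in wild type. Of 9 surface ectoderm markers, 4 were higher, where 4.73% of all genes were higher and 8.41% lower at e11.0. Leaving out null replicate 3 of e11.0, or wild-type replicate 1 or 3, ended all of these endothelial and ectoderm calls. Not all e11.0 calls ended there. Of 4 listed muscle precursor markers, 3 were lower, Pax3 (-1.13 ± 0.13) whichever library was left out, Lbx1 (-1.01 ± 0.19) in 3 of 6 such fits and Myf5 (-0.81 ± 0.13) in 4. Their count was 2 without wild-type replicate 1 and 1 without either replicate 3. Of the 6 mesenchyme markers, 3 were lower at e11.0, Msx1, Lmx1b (-0.74 ± 0.12) and Prrx1 (-0.40 ± 0.06). The Lmx1b call held in 3 of 6 such fits. The Prrx1 call held in 5, the exception being the fit without wild-type replicate 1. Tbx3 (0.16 ± 0.10) lay above 0 and was not called. Of 9 erythroid markers, all above 0 at e11.0, 1 was called higher, Hbb-bs (0.61 ± 0.16), in 2 of 6 fits without a library. The erythroid count ran from 0 to 9 in those fits. These markers summed to 6118 to 17698 CPM in null and 4837 to 11198 CPM in wild type at e11.0. The difference between stages was called for 0 of the 9. The part of cell composition in the Grem1 and Msx1 differences was not tested.

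**Figure D4:**
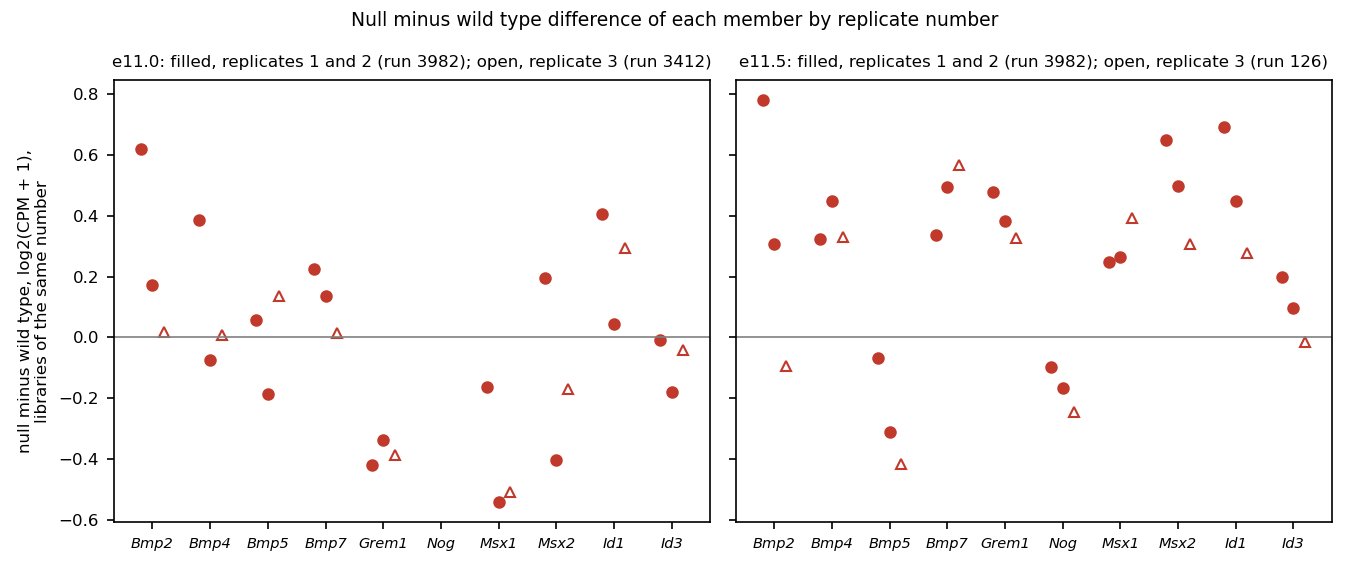
Null minus wild-type difference in log2(CPM + 1) of each member between libraries of the same replicate number, at e11.0 (left) and e11.5 (right); filled circles are replicates 1 and 2 of run3982, open triangles replicate 3 of run3412 or run126. All 3 differences are below 0 for Grem1 and Msx1 at e11.0, and above 0 for both at e11.5.

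Differences between libraries of the same replicate number show the spread behind these fits. They come from the same libraries, so they are no separate support for the calls. The labels do not pair libraries of a number beyond the shared run. For Grem1 the 3 differences of e11.0 were -0.42, -0.34 and -0.39, while those of e11.5 were 0.48, 0.38 and 0.33. For Msx1 the differences of e11.0 were -0.16, -0.54 and -0.51, while those of e11.5 were 0.25, 0.26 and 0.39. All 6 members called at e11.5 had 3 positive differences there, which their calls on the same libraries made likely beforehand. At e11.0, Msx2 gave 0.20, -0.40 and -0.17 and Bmp4 gave 0.39, -0.07 and 0.01. Over the 9 members listed at e11.0, the number above 0 was 6, 3 and 5 for replicates 1 to 3, and over the 10 listed at e11.5 it was 8, 8 and 6.

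In CD1 embryos, hindlimb buds at e11.0 were set against forelimb buds at e10.5, stages chosen to match in morphology, so that limb type and age cannot be told apart. Msx2 and Bmp7 were lower and Grem1 higher in hindlimb, 3 of 9 members, where 5.87% of 13540 genes were called, 2.41% higher and 3.46% lower. edgeR on the recovered reads also called 1 member higher and 2 lower, and 6.51% of all genes. Msx2 was at 21.5, 22.2 and 18.9 CPM in hindlimb, against 37.8, 40.6 and 33.4 CPM in forelimb. The hindlimb libraries were all below the forelimb libraries, as 11.2% of genes showed no overlap, and the log2 fold change of -0.81 ± 0.06 (SE, limma adjusted p = 0.0001) was called whichever library was left out.

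Grem1 was at 97.2, 109.6 and 102 CPM in CD1 hindlimb, against 83.8, 73.3 and 85.4 CPM in forelimb, without overlap. The log2 fold change was 0.35 ± 0.07 (SE, limma adjusted p = 0.0146), and without hindlimb replicate 2 it was 0.28 and not called (limma adjusted p = 0.0802). Bmp7 was at 77.7, 75.3 and 44.3 CPM in hindlimb, against 82.0, 95.4 and 56.8 CPM in forelimb, with replicate 3 lowest in both limbs and the groups overlapping. Its log2 fold change of -0.26 ± 0.06 (SE, limma adjusted p = 0.0482) was not called with the replicate block (limma adjusted p = 0.0722), and it was called in 1 of 6 fits without a library, that without forelimb replicate 1, with 0.118 to 0.207 in the others. Msx1, at 148, 145 and 135 CPM in hindlimb against 118, 139 and 110 CPM in forelimb, overlapped and was not called (0.23 ± 0.06, limma adjusted p = 0.0644), but it was called without forelimb replicate 2 (limma adjusted p = 0.0102). Id1 (-0.12) was likewise called only without forelimb replicate 1 (limma adjusted p = 0.0400), and Bmp2, Bmp4, Bmp5 and Id3 had log2 fold changes of -0.07 to 0.14 and were not called in any such fit. In CD1 hindlimb, 3 of 6 mesenchyme markers and 2 of 4 listed muscle precursor markers were lower. Of 8 listed erythroid markers 4 were higher. Over all genes 2.41% were higher and 3.46% lower. With single libraries left out, these marker counts were 1 to 3, 2 to 3 and 3 to 5. Of 8 ridge and limb bud ectoderm genes 1 was lower. Surface ectoderm, endothelial and macrophage markers gave no call. The part of cell composition here was not tested.

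Of the other genes of the pathway, 55 in all, more were called lower than higher in null hindlimbs, as was so of all genes. At e11.5, 49 were listed, of which 1 was higher and 9 lower, and at e11.0, 43 were listed, of which 0 were higher and 9 lower in limma, with 2 higher and 18 lower at an unadjusted p under 0.05, 1 higher and 4 lower in edgeR, and 1 higher and 2 lower in DESeq2 on the recovered reads. Over all genes 2.83% were higher and 7.96% lower at e11.5, and 4.73% higher and 8.41% lower at e11.0, where median-ratio scaling turned the split to 1326 higher and 403 lower. The median log2 fold change of the listed genes was -0.08 at each stage, beside -0.02 over all genes at e11.5 and -0.07 at e11.0. The difference between stages was called for 0 of 43 in limma, in edgeR and in DESeq2, with 5 at an unadjusted p under 0.05.

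Secreted antagonists other than Grem1 and Nog gave 5 lower and 0 higher of 12 listed in e11.5 null hindlimbs, where 7.96% of all genes were lower and 2.83% higher, with 7 lower and 1 higher at an unadjusted p under 0.05 and 5 and 0 in edgeR. Bmper, a Bmp-binding extracellular protein, averaged 0.964 ± 0.348 CPM in null and 3.07 ± 0.147 CPM in wild type (log2 fold change -1.07 ± 0.13, limma adjusted p = 0.0019). Fst, follistatin, which binds activins and Bmps, averaged 1.17 ± 0.526 CPM in null and 3.43 ± 0.912 CPM in wild type (-1.04 ± 0.11, limma adjusted p = 0.0012). Neither is listed at e11.0. Nbl1, of the Dan family to which gremlins belong, averaged 17.9 ± 6.35 CPM in null and 29.2 ± 3.77 CPM in wild type (-0.73 ± 0.14), and Chrd, chordin (-0.48 ± 0.09), and Sostdc1 (-0.46 ± 0.10) were also lower. Bmper and Fst were called whichever library was left out, Nbl1 in 5 of 6 such fits, Chrd in 3 and Sostdc1 in 2, and the count of 5 became 2 without null replicate 2 and 3 without either replicate 3. At e11.0, 1 of 8 listed antagonists was lower, Fstl1 (-0.28 ± 0.06), which was named after its value was seen.

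Among receptors and co-receptors, 3 of 10 were lower at each stage, beside 8.41% of all genes at e11.0 and 7.96% at e11.5. With edgeR on the recovered reads, 1 was lower at e11.0 and 2 at e11.5. The membrane-anchored Bmp co-receptors Rgma and Rgmb were lower at both stages, with log2 fold changes of -0.59 ± 0.07 and -0.53 ± 0.08 at e11.5, and of -0.44 ± 0.11 and -0.37 ± 0.10 at e11.0. The e11.5 calls of Rgma and Rgmb held whichever library was left out. Rgma averaged 48.5 ± 2.66 CPM in null and 73.5 ± 6.97 CPM in wild type at e11.5. Bmpr1b, a type I receptor of forming digit cartilage, was lower at e11.5 (-0.28 ± 0.07) in a call that held in 1 of 6 such fits, and Eng, an endothelial co-receptor, was lower at e11.0 alone by the threshold (-0.45 ± 0.13), the difference between stages not being called (limma adjusted p = 0.203).

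Among Smads and intracellular inhibitors, 3 of 12 were lower in e11.0 null hindlimbs, beside 8.41% of all genes. They were the Smad-binding Tob1 (-0.50 ± 0.11), the ubiquitin ligase Smurf1 (-0.43 ± 0.10) and the transducer Smad5 (-0.29 ± 0.06), the last named after its value was seen. With edgeR on the recovered reads, 2 were lower and 1 higher. At e11.5, 0 of 12 were called in limma and in edgeR, with 2 at an unadjusted p under 0.05. Of other targets, Hey1 was lower at e11.0 (-0.44 ± 0.12), and 0 of 11 were called at e11.5 in limma and in edgeR, with 4 at an unadjusted p under 0.05. Of other ligands, Gdf5, known for its part in joints, averaged 3.61 ± 1.98 CPM in e11.5 null and 7.33 ± 2.50 CPM in e11.5 wild-type hindlimbs (-0.92 ± 0.15, limma adjusted p = 0.0070) and was also lower at e11.0 (-0.60 ± 0.14). Gdf6 was higher at e11.5 (0.35 ± 0.09) in a call that held in 1 of 6 fits without a library. All 9 calls at e11.0 were lost in each fit that left out null replicate 2 or 3, or wild-type replicate 1 or 3.

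In CD1 hindlimb over forelimb, 1 of 44 listed pathway genes was higher and 4 lower, beside 2.41% and 3.46% of all 13540 genes. At an unadjusted p under 0.05, 5 were higher and 12 lower, and edgeR on the recovered reads called 1 higher and 5 lower. Bmp3 (-1.08 ± 0.12) and Bmpr1b (-0.78 ± 0.09) were lower in hindlimb whichever library was left out, Bmper (-0.78 ± 0.16) and Id2 (-0.29 ± 0.05) were lower in calls that held in 4 and 3 of 6 such fits, and Hey1 (0.36 ± 0.06) was higher. Bmp3 averaged 0.933 ± 0.439 CPM in hindlimb and 3.17 ± 1.30 CPM in forelimb.

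Position in the genome was described for 2 members. Msx2 lies 2.35 Mb from Pitx1 on chromosome 13. Of the listed genes between them, 3 were higher and 2 lower of 36 in e11.5 null hindlimbs, with log2 fold changes of -1.03 to 0.29. At e11.0, 1 was higher and 7 lower of 34. Over all genes, 2.83% were higher and 7.96% lower at e11.5, and 4.73% higher and 8.41% lower at e11.0. The part of this linked region in the Msx2 level was not tested. The neighbours of Grem1 on chromosome 2, Fmn1, Scg5 and Arhgap11a, were not called in limma without the block, or in edgeR, in any comparison. At e11.5 they had log2 fold changes of 0.07, -0.29 and 0.04, beside 0.40 for Grem1, and of the 3 only Scg5 had an unadjusted p under 0.05 there. At e11.0 they had log2 fold changes of -0.04, -0.07 and -0.25, beside -0.38 for Grem1, and Arhgap11a, the one with an unadjusted p under 0.05, passed with the replicate block (limma adjusted p = 0.0299).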

How the data were processed

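RNA was measured by sequencing in 18 libraries of mouse limb buds, 3 in each of 6 groups set by the labels. STAR, featureCounts, edgeR and the build GRCm38 (mm10) are named in the submitters' processing notes. Tool versions and whether counting kept strand are not given in the sources used here. Reads of a gene and of its antisense partner may be mixed. The authors deposited 3 tables, normalized separately, of CPM in each library relative to its reads on listed genes. Beside these, per the file headers, stand the authors' log2 fold change and mean log2 CPM. The authors' likelihood-ratio score and p-value, raw and adjusted, are there too, per the file headers. Gene models and coordinates are from GENCODE release M 21.

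Within 0.01 read, 100% of CPM values came out as whole reads, so reads were recovered. Intervals of counting error are not given, since PCR copies are not separate molecules. Because the deposited columns hold CPM, each table was fitted with limma 3.58.1 (trend) in R 4.3.3 on log2(CPM + 1), adjusting for run beside the group effect, with 3 residual degrees of freedom (6 for the difference between stages). Changes of low genes are understated on this scale. All tests were two-sided and p was adjusted over every listed gene (Benjamini-Hochberg), with a threshold of 0.05. edgeR 4.0.16 quasi-likelihood on the recovered reads called 1734 genes at e11.0, 1630 at e11.5, 881 in CD1 and 68 in the difference between stages, and DESeq2 1.42.0 was a further alternative. Each script was tested on simulated data. Libraries of the same number deviated together from their group means (correlations 0.66, 0.64 and 0.86 at e11.0, 0.73, 0.83 and 0.91 at e11.5, 0.69, 0.80 and 0.94 in CD1), so a replicate block was fitted. These correlations also hold the shared run. Across numbers, replicates 1 and 2 of run3982 correlated at 0.41 and 0.53 at e11.0 and at 0.63 and 0.63 at e11.5. In CD1 these values were 0.85 and 0.75, beside 0.69 and 0.80 for the same number. Other alternatives were the pseudocount (0.5 and 2 CPM), a mean of at least 1 CPM, no run term, replicates 1 and 2 only, 3 scalings, leaving out globin, mitochondrial and abundant noncoding genes, and leaving out each library. Within-run values were added after the data were seen.

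The members and the lists of other pathway genes and cell markers were chosen with earlier results of these data known. Of other pathway genes, those called in at least 1 comparison are named, at most 16, by the largest absolute log2 fold change, and 2 more are named where a count needed them.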

Additional observations from a re-analysis of the deposited data

Results flagged for a closer look

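The Pitx1 null effect on Grem1 and on Msx1 differed between e11.0 and e11.5 by the test of the difference over the 12 Pitx1 libraries. For Grem1 the e11.5 effect minus the e11.0 effect was 0.78 on the log2(CPM + 1) scale (limma adjusted p = 0.0120), with all 3 same-numbered differences below 0 at e11.0 and above 0 at e11.5. For Msx1 it was 0.71 (limma adjusted p = 0.0419), with the same signs at all 3 replicate numbers of each stage. These signs come from the libraries that gave the calls and are no separate support. The Grem1 call held in 11 of 12 fits without a library, and the Msx1 call in only 3 of 12. In edgeR on the recovered reads Msx1 was not called (adjusted p = 0.0537). With replicates 1 and 2 alone, neither gene was called. Library preparation differed between the stages and cannot be told apart from age.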

How the results depend on the processing

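The members called at e11.5 numbered 6 in every alternative except the fit without a run term, which called 0. That fit also called 0 members at e11.0, in CD1 and in the difference between stages. With replicates 1 and 2 only, 0 members were called at e11.0 and 0 in the difference between stages. Median-ratio scaling gave 1 call at e11.0, Id1, in place of Grem1 and Msx1, and edgeR on the recovered reads left 1 in the difference between stages, Grem1. Leaving out each library gave 0 to 3 calls at e11.0, 6 at e11.5, 1 to 4 in CD1 and 0 to 4 in the difference between stages. The replicate block gave 3 calls at e11.0, 6 at e11.5, 2 in CD1 and 2 in the difference between stages, and changed no call but those given for Id1 and Bmp7. The cause of these changes was not tested, apart from the fewer libraries in some fits.

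Over all genes, counts moved by more than 1.5 times. The block called 3442 genes at e11.0, against 1843, and 210 in the difference between stages, against 47. Without a run term the counts were 5 at e11.0, 11 at e11.5, where the fit with it called 1455, 13 in CD1, where it called 795, and 0 in the difference. With replicates 1 and 2 only they were 199, 483, 471 and 18. In the difference between stages DESeq2 called 235, a pseudocount of 2 called 75, and trimmed-mean, median-ratio and upper-quartile scaling called 69, 76 and 71. Leaving out either replicate 3 gave equal fold changes, because the run term then takes up the other.

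Signs turned only for values that were not called. At e11.0, Bmp4 ranged from -0.0199 to 0.205 when single libraries were left out and Bmp5 from -0.0639 to 0.0733, with -0.0639 also for Bmp5 with replicates 1 and 2 only, while Id3 became 0.0206 with median-ratio scaling and 0.0226 with DESeq2. In CD1, Bmp2 ranged from -0.0317 to 0.068 when single libraries were left out. In the difference between stages, Bmp2 became -0.00056 with median-ratio scaling and -0.0175 with DESeq2, and ranged from -0.0909 to 0.273 when single libraries were left out. Whether depth limits the calls was not tested. Bmp2 rested on 88 and 123 reads in the e11.0 null libraries of run3982 and on 65 and 76 in the wild-type ones.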

Other observations

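The ratio of Grem1 to Bmp4 CPM, chosen after the values were seen and given without a test, sets the antagonist beside the ligand it binds within each library. At e11.0 it was 0.940, 1.07 and 0.367 in null libraries 1 to 3, against 1.65, 1.29 and 0.487 in wild-type libraries 1 to 3, and each null value was below the wild-type value of its number. At e11.5 it was 1.29, 1.18 and 0.854 in null libraries, against 1.16, 1.24 and 0.855 in wild-type libraries, so both genes were higher in null hindlimbs and their ratio was close in the genotypes. In CD1 it was 1.53, 1.55 and 1.82 in hindlimb, against 1.4, 1.25 and 1.46 in forelimb. Replicate 3 of the Pitx1 groups, sequenced in another run, had the lowest ratio in all 4 groups.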
